A study of Mus musculus with 6 samples.

Results

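The enzymes and transporters that bring cystine into the cell and turn it into glutathione were followed in the back skin of newborn mice labelled as carrying a constitutively active Nrf2 and of their controls. The members are 7 genes, Slc7a11, Slc3a2, Gclc, Gclm, Gss, Gsr and Ggct, out of 18193 genes that the array annotation names with a single symbol. They were chosen by name, and all of their probe sets with 1 gene symbol were kept, which gave 14 of the 45037 probe sets tested. Of the genes, 5 have 2 probe sets each, Ggct has 3 and Slc3a2 has 1.

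RNA came from the whole back skin of 6 female littermates killed at postnatal day 2.5, with 1 array per mouse and no pooling. The caNrf2 group holds 3 mice labelled K5cre-caNrf2 (tg/tg), which combine a transgene for constitutively active Nrf2 with Cre recombinase under the keratin 5 promoter, active in basal keratinocytes and in the cells that descend from them. The control group holds 3 mice labelled K5cre-wt (tg/wt), a label that does not say which transgene these mice carry, and the strain of all 6 mice was a mix of FVB/N with C57BL/6. The sample descriptions of both groups also carry the word weak, which the labels do not explain. The comparison asks which transcripts of the pathway differ when Nrf2 is always active in the epidermis. Whole skin also holds dermis, fat, muscle and other cells, and each value is an average over them. In such samples fewer cells of a type and less RNA per cell cannot be told apart.

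Glutathione is a tripeptide of glutamate, cysteine and glycine that keeps proteins reduced and serves peroxidases and transferases as a cofactor. Cysteine is usually its scarcest building block. Cells import it largely as the oxidised dimer cystine through system xc-, a pair made of the transporter Slc7a11 and the heavy chain Slc3a2. Glutamate-cysteine ligase, with its catalytic subunit Gclc and its modifier subunit Gclm, then makes the rate-limiting dipeptide, and glutathione synthetase, Gss, adds glycine. Glutathione reductase, Gsr, regenerates glutathione from its oxidised form with NADPH, and gamma-glutamylcyclotransferase, Ggct, releases amino acids from gamma-glutamyl dipeptides. Nrf2 activates many such genes by binding antioxidant response elements as a partner of small Maf proteins. ATF4, the factor of the amino acid response, also acts on cystine uptake.

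RefSeq promoter sequences of assembly GRCm38.p6 were found for 5 of the 7 members, Slc7a11, Slc3a2, Gclm, Gss and Ggct. Windows of 250 bases before to 50 after a start site were searched on both strands for the antioxidant response element core TGACNNNGC and for the amino acid response element core TGATGNAA. The 3 stretches printed here are those upstream of the start that hold a match, and the capitals mark the matched bases in the strand of the gene. They lie at chr3:50443623-50443709 (minus strand) for Slc7a11, chr3:122245393-122245461 (plus strand) for Gclm and chr6:54993003-54993071 (minus strand) for Ggct. The Slc7a11 stretch lies inside the annotated gene, which has other starts further upstream. The other stretches lie outside the annotated genes.
Slc7a11: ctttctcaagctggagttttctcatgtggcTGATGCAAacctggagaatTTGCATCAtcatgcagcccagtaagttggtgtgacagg
Gclm: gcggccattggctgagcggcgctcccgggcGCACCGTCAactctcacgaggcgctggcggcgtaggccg
Ggct: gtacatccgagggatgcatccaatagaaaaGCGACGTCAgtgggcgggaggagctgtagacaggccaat
The Slc7a11 stretch has 2 amino acid response element cores in opposite orientations, whose first bases lie at positions -66 and -47, where -1 is the last base before the start. Among 32851 windows of this kind, 3.97% held at least 1 such core and 23 windows, or 0.07%, held at least 2. Gclm has 1 antioxidant response element core on the opposite strand, beginning at position -134. Ggct has 1 on the opposite strand at position -174 and a further one just after its start, which is not printed. Of all windows, 12.4% held this core. Slc3a2 and Gss had no match to either core in the window. A match is a run of letters and not a measured binding site.

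All 7 genes were higher on average in caNrf2 skin, by amounts that differed between genes and probe sets. Both subunits of glutamate-cysteine ligase about doubled, and Gss and Gsr rose 1.53-fold to 1.81-fold. The transporter Slc7a11 rose on 1 of its probe sets, 4.01-fold over control values at the level of silent genes, and missed the threshold on the other. Its partner Slc3a2 (1.10-fold) and the cyclotransferase Ggct (1.06-fold to 1.20-fold) did not pass. Of the 14 probe sets, 9 were called higher and 0 lower (limma, Benjamini-Hochberg adjusted p under 0.05 over all probe sets), where 0.226% of all probe sets were called higher and 0.0133% lower. The 9 called probe sets belong to 5 genes, and in 4 of these (Gclc, Gclm, Gss and Gsr) every probe set was called. The groups did not overlap on 12 of the 14 probe sets, with caNrf2 higher, against 6.9% of all probe sets. The median log2 difference of the 14 was 0.77, and that of all 45037 probe sets was 0.00.

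**Figure D1:**
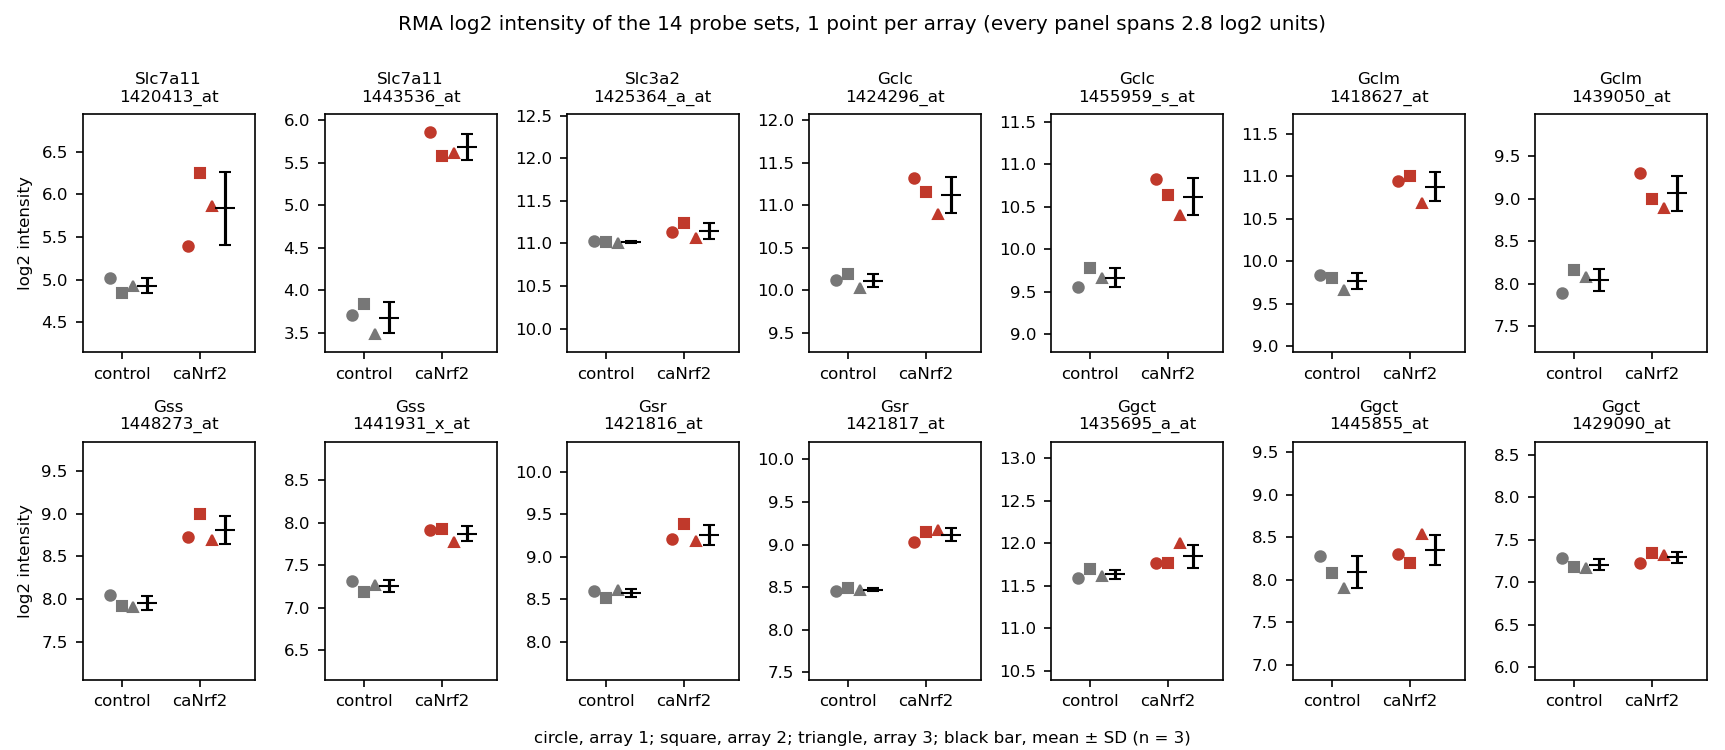
Log2 RMA intensity (vertical axis, every panel spanning the same range) of each of the 14 probe sets, with 1 point per array for 3 control and 3 caNrf2 arrays and the mean ± SD beside them. The groups are apart on every panel of Gclc, Gclm, Gss, Gsr and Slc7a11, lie close together for Slc3a2, and overlap on 2 of the 3 panels of Ggct.

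Slc7a11, the cystine-importing light chain, gave different answers on its probe sets. On 1443536_at the log2 intensity was 3.71, 3.85 and 3.49 in control arrays 1 to 3 and 5.86, 5.58 and 5.61 in caNrf2 arrays 1 to 3. Every caNrf2 array was higher than every control array by at least 1.73. The difference was 2.00 ± 0.11 (SE), a 4.01-fold rise (95% interval 3.40 to 4.73, adjusted p = 6.71e-06), which was the 12th largest difference among all probe sets. The control values lay within the range of 9 probe sets of 3 Y-linked genes, which are silent in females and measured 2.62 to 3.95, so the fold starts from the level of a silent gene and is uncertain. With 16 intensity units added before log2 the difference was 1.22 (adjusted p = 0.000227).

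On the other Slc7a11 probe set, 1420413_at, which is the brighter one on average, the controls measured 5.01, 4.84 and 4.93 and the caNrf2 arrays 5.39, 6.25 and 5.87. The groups did not overlap, but caNrf2 array 1 was only 0.38 above the highest control and the SD rose from 0.09 in control to 0.43 in caNrf2 skin. The difference of 0.91 ± 0.17 was 1.88-fold (95% interval 1.45 to 2.43) and missed the threshold (adjusted p = 0.0812). Without caNrf2 array 1 it was 1.13 and called (adjusted p = 0.00536), and the adjusted p of this probe set ran from 0.00536 to 0.366 over its 14 alternative settings. The mean of both probe sets differed by 1.46 (adjusted p = 2.7e-05). The array with the lowest caNrf2 value on this probe set, array 1, had the highest on 1443536_at. The 2 probe sets thus share the direction and not the order of the animals.

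Slc3a2, the heavy chain that carries Slc7a11 and several other amino acid transporters to the cell surface, measured 11.03, 11.01 and 11.00 in control and 11.14, 11.24 and 11.06 in caNrf2 skin. The caNrf2 arrays lay above the controls, by as little as 0.03. The difference of 0.13 ± 0.08 had a 95% interval from -0.04 to 0.30 and did not pass (adjusted p = 0.649). The interval's upper end corresponds to 1.23-fold. Within each array, the log2 ratio of Slc7a11 to Slc3a2, at their brightest probe sets, was 0.77 higher in caNrf2 skin, with no overlap of the groups (exact two-sided permutation p = 0.1, the smallest that 3 against 3 arrays allow; 0.2 after adjustment over 4 ratios). Averaging both Slc7a11 probe sets made this change 1.32, and adding 16 intensity units before log2 made it 0.53.

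Gclc, the catalytic subunit of glutamate-cysteine ligase, measured 10.12, 10.19 and 10.03 in control and 11.32, 11.16 and 10.90 in caNrf2 skin on 1424296_at. All caNrf2 arrays stood at least 0.71 above all controls. In intensity units the means were 1109 ± 61.1 and 2248 ± 324 (SD, n = 3). The log2 difference was 1.01 ± 0.11, or 2.01-fold (95% interval 1.71 to 2.37, adjusted p = 0.00156). A second probe set, 1455959_s_at, of a kind that can match more than 1 transcript, rose 1.94-fold (0.95 ± 0.11, adjusted p = 0.00308), with the caNrf2 arrays in the same order.

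Gclm, the modifier subunit that lowers the ligase's need for glutamate and its inhibition by glutathione, measured 9.83, 9.81 and 9.66 in control and 10.95, 11.01 and 10.68 in caNrf2 skin on 1418627_at. The gap between the groups was 0.85, wider than the 0.33 between the lowest and the highest caNrf2 array. The difference was 1.11 ± 0.10, or 2.16-fold (95% interval 1.86 to 2.51, adjusted p = 0.000415). On the dimmer 1439050_at, values of 7.90, 8.16 and 8.08 stood against 9.30, 9.00 and 8.89, a 2.03-fold rise (1.02 ± 0.11, adjusted p = 0.00223). The within-array log2 ratio of Gclm to Gclc differed by 0.10 between the groups, which overlapped (exact two-sided permutation p = 0.2; adjusted over the 4 ratios 0.267). The groups did not overlap with each gene's probe sets averaged (0.08, exact permutation p = 0.1) or without caNrf2 array 1 (0.16, exact permutation p = 0.1), so the overlap depended on these choices.

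Gss, which completes glutathione by adding glycine, measured 8.05, 7.92 and 7.90 in control and 8.73, 9.00 and 8.69 in caNrf2 skin on 1448273_at. The lowest caNrf2 array was 0.65 above the highest control. The difference was 0.85 ± 0.09, or 1.81-fold (95% interval 1.56 to 2.09, adjusted p = 0.00246). The second probe set, 1441931_x_at, of a kind that can bind related transcripts, rose 1.53-fold (0.62 ± 0.08, adjusted p = 0.00727). That call was lost without control array 2 (adjusted p = 0.0645) or control array 3 (0.0505), and the adjusted p ran from 0.00217 to 0.0645 over all settings. The within-array ratio of Gss to Gclc differed by -0.16, with overlapping groups (exact two-sided permutation p = 0.4, also after adjustment).

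Gsr, the NADPH-dependent reductase that recycles oxidised glutathione, gave the same size of rise on both probe sets. On 1421816_at it measured 8.60, 8.52 and 8.61 in control and 9.20, 9.39 and 9.18 in caNrf2 skin. On 1421817_at the values were 8.45, 8.48 and 8.47 against 9.03, 9.15 and 9.17. The groups were at least 0.54 apart on either. The rises were 1.60-fold (0.68 ± 0.08, adjusted p = 0.00442) and 1.56-fold (0.65 ± 0.07, adjusted p = 0.00314). Gsr rose less than Gclc within every caNrf2 array, and the log2 ratio of Gsr to Gclc differed by -0.33 without overlap of the groups (exact two-sided permutation p = 0.1, the smallest possible; 0.2 after adjustment). Without caNrf2 array 1 the change was -0.21, and with all probe sets of a gene averaged it was -0.32 with overlapping groups (exact permutation p = 0.2).

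Ggct, which releases 5-oxoproline and a free amino acid from gamma-glutamyl peptides, did not pass on any of its 3 probe sets. On its brightest probe set, 1435695_a_at, it measured 11.59, 11.69 and 11.62 in control and 11.77, 11.77 and 12.00 in caNrf2 skin. The groups were separated by 0.07, and caNrf2 array 3 was well above the other two. The difference of 0.21 ± 0.09 (1.16-fold, 95% interval 1.02 to 1.32) did not pass (adjusted p = 0.517). The other Ggct probe sets differed by 0.26 ± 0.11 (adjusted p = 0.554) and 0.09 ± 0.08 (adjusted p = 0.781), both with overlapping groups. None of the 3 intervals reached 1.5-fold, the highest upper end being 1.42-fold.

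**Figure D2:**
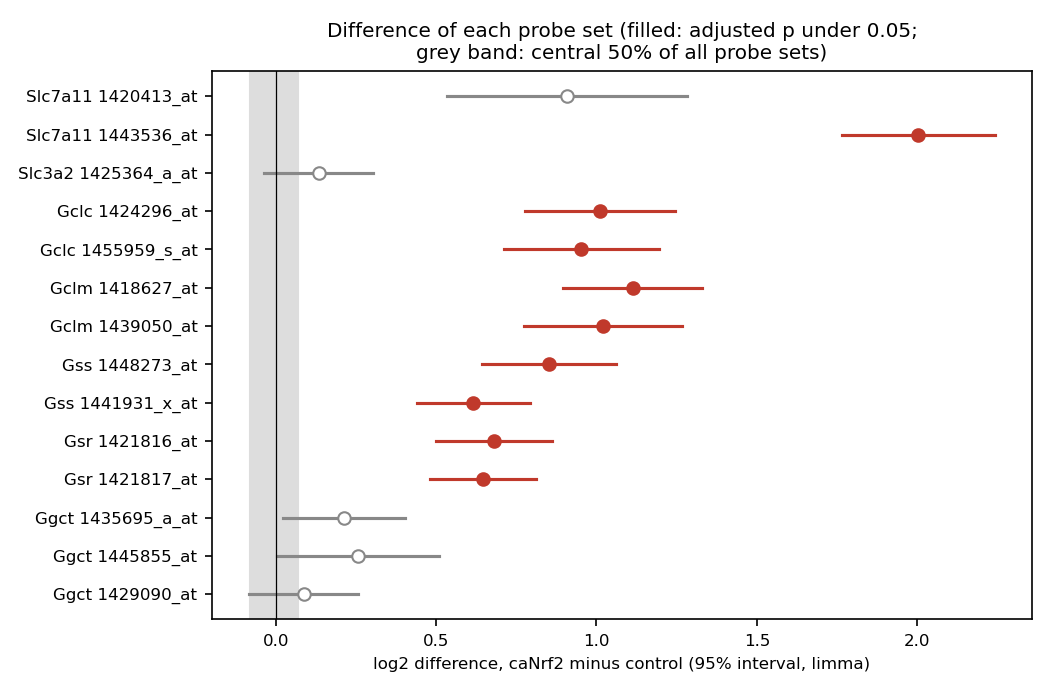
Log2 difference (horizontal axis, caNrf2 minus control) of each of the 14 probe sets with its 95% interval, filled where the adjusted p was under 0.05; the grey band spans the lower to the upper quartile of all probe sets, from -0.08 to 0.07. Gclc, Gclm, Gss and Gsr lie between 0.62 and 1.11 on both of their probe sets, Slc7a11 at 0.91 and 2.00, and Slc3a2 and Ggct at or below 0.26.

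At the brightest probe set of each gene the differences ran in the order Gclm (1.11), Gclc (1.01), Slc7a11 (0.91), Gss (0.85), Gsr (0.68), Ggct (0.21) and Slc3a2 (0.13). The intervals of neighbours overlapped throughout the first 5. Between Gsr and Ggct they did not, with 0.50 as the lower end for Gsr and 0.40 as the upper end for Ggct. On 1445855_at of Ggct the upper end was 0.51, so this separation depended on the probe set. The place of Slc7a11 did too, since it differed by 2.00 on 1443536_at and by 1.46 with both probe sets averaged. Among genes at their brightest probe set 0.302% were called higher and 0.022% lower, and 4 of the 7 members were called higher.

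The caNrf2 values were more spread out than the control values on most probe sets. The SD was larger in caNrf2 skin on 11 of the 14 probe sets, with a median of 0.16 against 0.08 in control skin. The wider spread was not particular to the members. Over all probe sets the Pearson correlation between arrays was 0.9978 to 0.998 within control and 0.9961 to 0.9969 within caNrf2. Over the 7 members at their brightest probe sets, caNrf2 arrays 1 to 3 averaged 0.64, 0.83 and 0.63 above the control mean. Array 3 had the lowest caNrf2 value on all 6 probe sets of Gclc, Gclm and Gss, and on 8 of the 14 in all. It had the highest value on 2 of the 3 Ggct probe sets and on 1 of Gsr. The mean of the 7 genes thus hid that array 3 stood differently for the ligase subunits and for most probe sets of Ggct. The order of the arrays also changed between probe sets of the same gene, as for Gclm, Gsr and Ggct, so it is no trait of a gene.

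**Figure D3:**
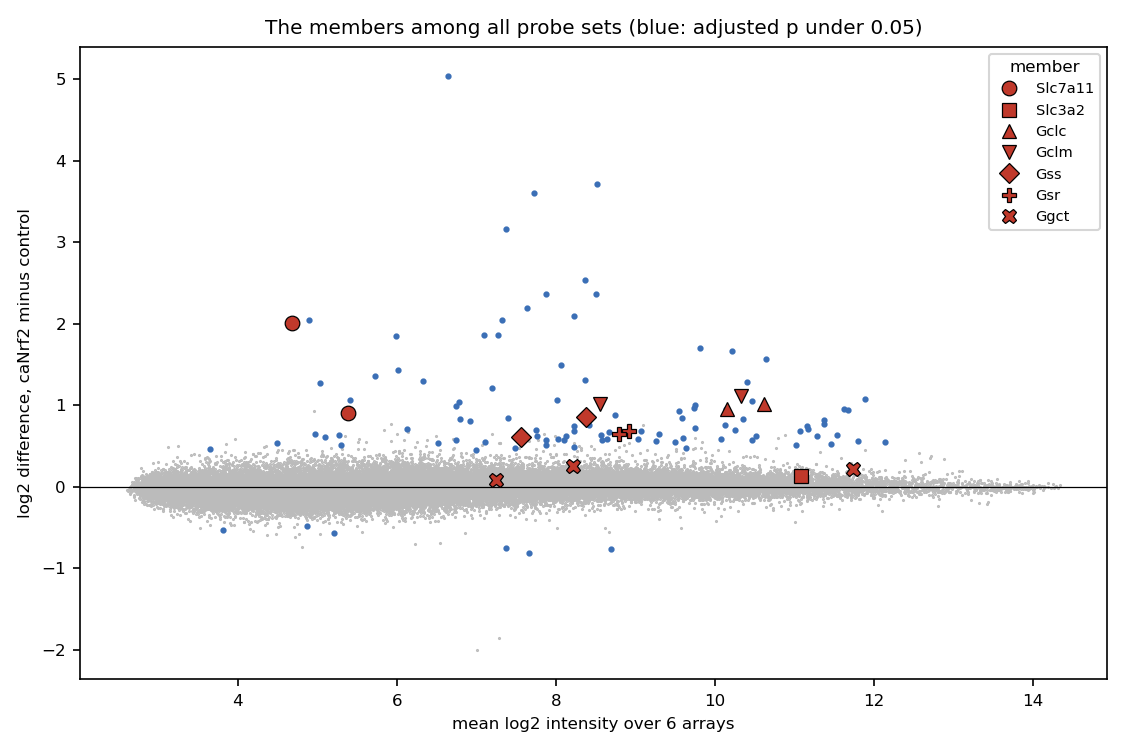
Log2 difference (caNrf2 minus control, vertical axis) against the mean log2 intensity over the 6 arrays (horizontal axis) for all 45037 probe sets in grey, those with adjusted p under 0.05 in blue, and the 14 probe sets of the 7 members in red with 1 symbol per gene. The 2 Slc7a11 probe sets lie at the dim end, while Gclc and Gclm, at 0.95 to 1.11, include some of the brighter ones.

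The design was checked on the transcription factor itself. The brighter probe set of Nfe2l2, which encodes Nrf2, differed by 0.41 ± 0.08 without overlap of the groups but missed the threshold (adjusted p = 0.0812), and the dimmer one by 0.24 ± 0.14 (adjusted p = 0.648). It was not examined if the probes also bind the transgene, so they check the labels in part. Keap1, which holds Nrf2 in check, differed by 0.28 and 0.23 on its probe sets, neither called (adjusted p = 0.349 and 0.551). Array medians ranged from 80.7 to 81.9 intensity units. Of 67 listed markers of 14 skin cell types 60 were measured and 0 were called, none was at the level of the silent genes in control skin, and the list medians ran from -0.22 to 0.05. Among all genes at their brightest probe set 0.302% were called higher and 0.022% lower. A count of 0 in so few markers is near that background and is no result about the cell types. Keratinocyte markers were bright, with mean levels of 11.71 (basal) and 13.09 (suprabasal). In 2 of the 14 lists the mean level over the markers did not overlap between groups. Of all single probe sets 14.2% did not overlap in either direction, so this count is near the background. The 4 neutrophil markers averaged 5.74 to 5.84 in control and 5.56 to 5.65 in caNrf2 arrays, and the 6 basal keratinocyte markers 11.67 to 11.69 and 11.69 to 11.82. Their part in the results was not tested.

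The neighbouring pathways were examined at the brightest probe set of each gene. In 8 lists that supply, move or break down the same amino acids and thiols, 78 genes were measured and 0 passed the threshold, with a median of 0.00 and a range from -0.30 to 0.49. Among all genes at their brightest probe set 0.302% were called higher and 0.022% lower, so a count of 0 in so few genes is near the background and is no result about these lists. The median of all genes was -0.01. Over all 163 probe sets of these 78 genes, 1 was called, where 0.24% of all probe sets were called in either direction. So small a count is no result about these lists either. These lists were drawn up with earlier results of these data known.

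On the supply side, none of 8 measured genes of the methionine cycle and transsulfuration, the route from methionine to cysteine, was called (median 0.01). Cth, which releases cysteine in that route, differed by 0.00 ± 0.08 and Cbs, the step before it, by -0.04 ± 0.08. These 2 were named for their place in the route, after their values were seen. The list's smallest p-values belonged to Mat1a (0.20 ± 0.09, near the silent level) and Ahcy (0.07 ± 0.09). Of 11 genes that use cysteine or its sulfur elsewhere none was called (median -0.12). Sqor, the mitochondrial sulfide quinone oxidoreductase, differed by 0.44 ± 0.09 (adjusted p = 0.137) and Gadl1, a decarboxylase, by -0.30 ± 0.08 (adjusted p = 0.309).

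None of the 9 relatives of the transporter pair was called either, and all 9 differences were small and below 0, from -0.15 to -0.01 (median -0.06). Slc7a9 measured 3.72 in control skin, at the silent level, and Slc3a1 4.31, near it. Their differences of -0.01 show no direction. The 9 also included Slc7a5, a large neutral amino acid transporter that also pairs with Slc3a2, at -0.06 ± 0.08, named after its value was seen. Slc7a1 (-0.13 ± 0.08) and Slc7a10 (-0.15 ± 0.13) had the smallest p-values of the list. Other lists, described below, had more genes above 0, with 13 of 15 in the ATF4 pathway and 7 of 9 glutaredoxins and thiol repair enzymes. Over the 8 lists together 41 of 78 genes were above 0. The quartiles of all genes at their brightest probe set were -0.08 and 0.06. Some signs changed between probe sets of a gene, such as Atf4 at 0.05, 0.02 and -0.13. The share of all genes above 0 was not counted, so these signs are no result about the lists. Among 12 genes that supply glutamate, glutamine and glycine the median was -0.01. The glycine transporter Slc6a9 differed by 0.49 ± 0.10 (adjusted p = 0.111). The neutral amino acid exchanger Slc1a4 differed by 0.40 ± 0.07 (adjusted p = 0.0715).

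The other enzymes of glutathione turnover did not pass. Of 11 genes of the gamma-glutamyl cycle and of glutathione breakdown 0 were called (median 0.01), with Chac2, a cyclotransferase that degrades glutathione, at 0.19 ± 0.09 and Ggt7 at -0.16 ± 0.08. Of 9 glutaredoxins and thiol repair enzymes 0 were called (median 0.09). Glrx, which reduces glutathionylated proteins, differed by 0.25 ± 0.09 (adjusted p = 0.434) and Glo1, which uses glutathione to clear methylglyoxal, by 0.23 ± 0.08 (adjusted p = 0.436). Of 4 mitochondrial carriers listed for glutathione transport 0 were called (median -0.05), with Slc25a40 at 0.14 ± 0.08 and Slc25a39 at -0.10 ± 0.08.

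The ATF4 pathway, named above for its part in cystine uptake, held 0 called genes among 15 (median 0.05). Atf3 had its smallest p, with 6.91, 6.73 and 7.03 in control and 7.25, 7.35 and 7.12 in caNrf2 skin, a difference of 0.35 ± 0.10 that did not pass (adjusted p = 0.335). Vldlr followed at 0.15 ± 0.08. Atf4 itself differed by 0.05 ± 0.08 (named after its value was seen). Of a further list, 11 of 12 Nrf2 targets outside the synthesis of glutathione were called higher, with a median of 1.76. They were Gsta3, Gpx2, Nqo1, Gsta4, Srxn1, Abcc3, Gstm1, Pgd, Txnrd1, Osgin1 and Me1, between 0.63 and 5.04. The highest value, that of Gsta3, started from 4.05 to 4.22 in control skin, near the silent level. Gsta3 differed by 2.05 on its other probe set, so the size of its rise is uncertain. Hmox1, the haem oxygenase, did not pass (0.24 ± 0.10, adjusted p = 0.541). This list was chosen knowing how these genes behave here and is no independent evidence of its direction.

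**Figure D4:**
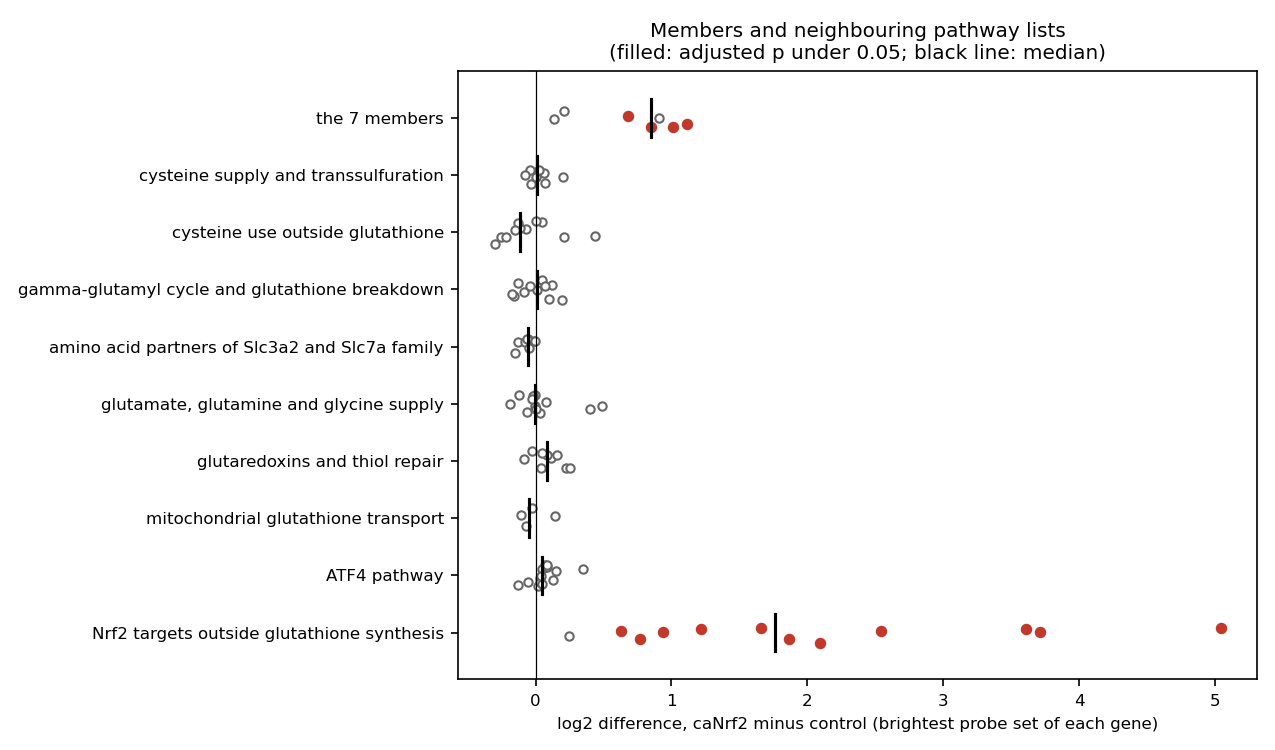
Log2 difference (horizontal axis, caNrf2 minus control, brightest probe set) of the 7 members and of the genes of 9 pathway lists, 1 point per gene, filled where the adjusted p was under 0.05, with the median as a black line and points spread vertically for legibility. Called genes appear among the members (4) and the other Nrf2 targets (11), and in none of the 8 remaining lists.

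The genes whose levels followed the mean profile of the 7 members most closely over the 6 arrays were sought among 20120 probe sets of at least median brightness. The 5 with the highest Pearson correlation were Bach1 (0.997), Hk1 (0.996), Mafg (0.996), Ppard (0.996) and Cyp4f39 (0.996). Of these, Hk1, a hexokinase (0.55 ± 0.08), Mafg, a small Maf protein (0.65 ± 0.08), and Ppard, a nuclear receptor (0.59 ± 0.08), were called. Bach1, a repressor that competes with Nrf2 for DNA, was measured here on a probe set that is not its brightest and differed by 0.37 ± 0.07 (adjusted p = 0.131). Cyp4f39, a fatty acid hydroxylase of the epidermis, differed by 0.30 ± 0.07 (adjusted p = 0.262). The 6 points fall into 2 groups that share their arrays, and 174 probe sets had a correlation above 0.95, so these values describe a ranking.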

How the data were processed

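The deposited values are linear intensities, 1 for each array and probe set, which the authors made with RMA per the submitters' processing notes. No source used here names its version or a filter. RMA evens out the arrays and compresses folds near background. Intensities were converted to log2. After leaving out 64 array controls, 45037 probe sets were compared between groups by the lmFit and eBayes functions of limma 3.58.1 under R 4.3.3, without a trend or block, with Benjamini-Hochberg adjustment over all of them and a threshold of 0.05. SE and 95% intervals come from that fit. The number of arrays limits the precision. For lists, the probe set with the highest mean represented a gene. Within-array ratios of members were compared with exact permutation tests over 20 assignments.

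Members, lists and tests were chosen with earlier results of these data known. Named genes are the members, Nfe2l2, Keap1, called genes of each list or otherwise the 2 with the smallest p, and the 5 genes most like the members' mean profile; others are marked in the text. Older symbols in the lists were matched through RefSeq gene identifiers, and 90 of 96 pathway genes were measured. The fit was tested on simulated data.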

Additional observations from a re-analysis of the deposited data

How the results depend on the processing

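No member probe set changed direction in any alternative it entered; the filter on low values left out both Slc7a11 probe sets, and the settings with 1 value per gene hold 7 values each. The 208 values under alternatives include 7 means over a gene's probe sets, each set against that gene's brightest probe set. Of the 208, 202 kept their side of the threshold. The others were the 4 in which the brighter Slc7a11 probe set, or the mean of both, passed (intensity trend, array weights, without caNrf2 array 1, and averaged probe sets) and the 2 in which 1441931_x_at of Gss was lost. Leaving out 1 array gave 8 to 10 called member probe sets and 64 to 136 called of all. The latter count was 69, 64 and 67 without control array 1, 2 and 3. With 1 value per gene fewer features are tested by construction: the brightest probe set gave 4 of 7 members and 68 genes in all, and the mean of all probe sets 5 of 7 and 63. The mean also moved the change of the Slc7a11 to Slc3a2 ratio to 1.32, and leaving out 1 array gave 0.62 to 0.99. With 16 intensity units added before log2 the change of this ratio was 0.53. The other ratios ran over left-out arrays from 0.06 to 0.16 (Gclm to Gclc), -0.23 to -0.03 (Gss to Gclc) and -0.40 to -0.21 (Gsr to Gclc). Adding 16 units lowered 1443536_at of Slc7a11 to 1.22 and 1420413_at to 0.66 (adjusted p = 0.236). A replicate block gave 9 member probe sets and 97 in all. Same-numbered arrays deviated from their group means with correlations of -0.15, -0.04 and 0.04, so the numbers were not taken as pairs. With 3 arrays per group, dim probe sets such as those of Slc7a11 are limited by their nearness to the background.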

Other observations

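Of the 163 probe sets of neighbouring pathway genes 1 was called, where 0.24% of all probe sets were called. It belonged to Slc1a4, a neutral amino acid exchanger that also carries cysteine, and it is described because of its value. The probe set 1423549_at rose from 7.45 to 8.07 on the log2 scale (0.62 ± 0.08 SE, adjusted p = 0.00608). The other Slc1a4 probe sets differed in the same direction, 1423550_at by 0.51 ± 0.09 (adjusted p = 0.0695) and the brightest, 1456003_a_at, by 0.40 ± 0.07 (adjusted p = 0.0715), and neither passed.

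Glo1, the glyoxalase that uses glutathione as its cofactor, was higher in caNrf2 skin by nearly the same amount on each of its 4 probe sets, by 0.21, 0.23, 0.24 and 0.24, and none passed (smallest adjusted p = 0.428). The 2 probe sets of Glrx differed by 0.25 and 0.24, again without passing (adjusted p = 0.434 and 0.445).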
